A study of Homo sapiens with 6 samples.

Results

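The E2F transcription factors and the pocket proteins that bind them were followed in HCCC9810 cells, an established human cholangiocarcinoma (CCA) cell line. The genes were chosen by symbol from the deposited table of read counts, and all 10 listed symbols, 7 E2F genes and 3 pocket protein genes, were found among its 19470 genes. RNA-seq libraries were made from wild type HCCC9810 cells given 20 μM isolinderalactone (ILL), a natural sesquiterpene lactone, for 24 h, with 3 libraries, or vehicle (DMSO) for the same 24 h, with 3 libraries. The comparison covers 1 cell line, 1 dose and 1 time point, and nothing in the labels says whether the libraries of a group came from separate cultures, so p-values measure the spread between these libraries.

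E2F factors bind promoters of genes needed for DNA synthesis and cell division. E2F1, E2F2 and E2F3 are known mainly as activators, E2F4 and E2F5 mainly as repressors that work with pocket proteins, and E2F7 and E2F8 as atypical repressors that bind DNA without a DP partner or a pocket protein. The pocket proteins are RB (gene RB1), p107 (RBL1) and p130 (RBL2). In resting cells p130, and in some settings p107, joins E2F4 or E2F5 and the MuvB core in the DREAM complex, which keeps cell cycle genes silent. Cyclin-dependent kinases phosphorylate pocket proteins and free the E2F factors, and several E2F and pocket protein genes are themselves E2F targets.

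Letters of the promoters are shown first, so that the E2F sites of these genes can be set beside their levels. RefSeq promoter windows on GRCh38.p14, running from 250 bases before to 50 bases after a transcription start, were read for E2F1, E2F2, E2F3, E2F4, E2F7, RBL1 and RBL2, which is 7 of the 10 genes. No window was available here for E2F5 or E2F8. The RB1 window was left out, because it lies 172724 bases from the annotated start of RB1. Each line below gives the 70 bases before the first listed start, 5′ to 3′ on the strand of the gene. Capitals mark matches, on either strand, to the E2F motif in its spellings TTTCCCGC, TTTCGCGC, TTTGCCGC or TTTGGCGC.
E2F1, chr20:33686386-33686455, minus strand: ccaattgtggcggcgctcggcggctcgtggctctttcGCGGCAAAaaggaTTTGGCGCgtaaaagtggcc
E2F2, chr1:23531234-23531303, minus strand: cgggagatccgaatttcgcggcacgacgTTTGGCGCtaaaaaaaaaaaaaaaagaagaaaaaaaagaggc
E2F3, chr6:20401809-20401878, plus strand: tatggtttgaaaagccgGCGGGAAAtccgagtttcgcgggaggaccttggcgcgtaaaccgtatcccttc
RBL1, chr20:37095998-37096067, minus strand: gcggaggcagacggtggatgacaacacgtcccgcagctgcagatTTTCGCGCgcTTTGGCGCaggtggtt
E2F4, chr16:67192085-67192154, plus strand: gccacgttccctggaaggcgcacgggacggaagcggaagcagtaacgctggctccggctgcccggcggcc
E2F7, chr12:77065570-77065639, minus strand: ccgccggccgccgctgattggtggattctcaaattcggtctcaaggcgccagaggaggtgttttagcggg
RBL2, chr16:53434401-53434470, plus strand: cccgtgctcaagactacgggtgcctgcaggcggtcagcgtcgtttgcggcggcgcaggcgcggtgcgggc

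The E2F motif was present in the windows of 4 of these 7 genes. It was present in 6.58% of the tested genes with a window and 3.31% of all 35116 windows of the same length. Those 2 shares include windows at any distance from the annotated gene start. The E2F1 window held a pair of matches, the first at bases -33 to -26 and the second at -20 to -13 from the start. RBL1 also held a pair, at -26 to -19 and at -16 to -9. E2F2 held 1 match at -42 to -35, and E2F3 held 1 match at -53 to -46, before the first of its 2 listed starts. None of these 4 spellings lay in the windows of E2F4, E2F7 or RBL2. The CHR element, the DREAM site spelled TTTGAA or TTCGAA, lay in the first of the 2 windows of E2F3 and in the first of the 2 windows of RBL2, beside 15.5% of tested genes and 16.4% of all windows. CCAAT boxes numbered 3 in the E2F1 window, 4 each in the first window of E2F3 and that of E2F7, and 1 in the second window of RBL2, while 42.9% of tested genes and 34.6% of all windows had at least 1. A match is a string of letters, and binding was not measured.

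**Figure D1:**
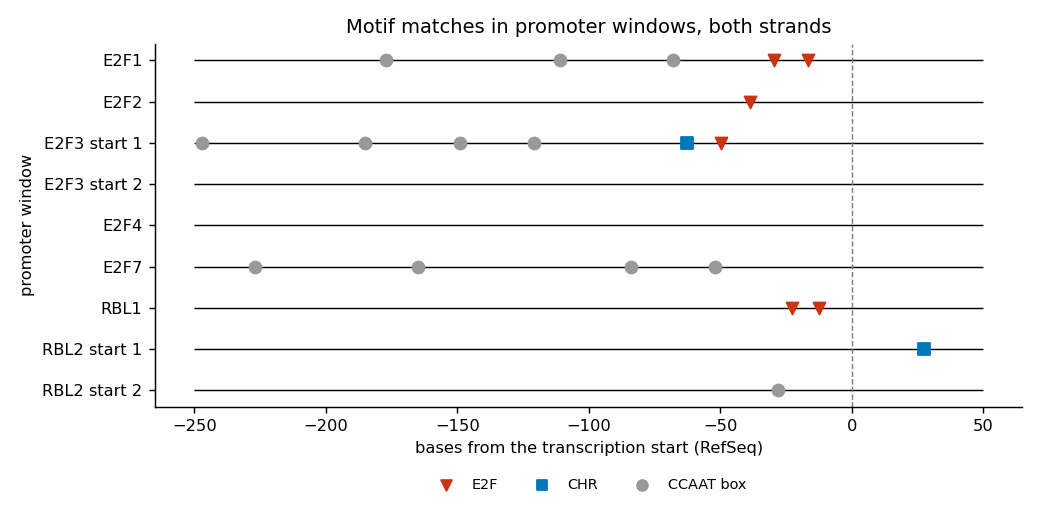
Positions of motif matches in the promoter windows of 7 genes, in bases from the RefSeq transcription start (dashed line), with 1 row per listed start. Red triangles (E2F motif) lie within 53 bases before the start in E2F1, E2F2, E2F3 and RBL1 and are absent from the rows of E2F4, E2F7 and RBL2, while blue squares mark CHR elements and grey circles CCAAT boxes.

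The libraries held between 34282764 and 37758569 counted reads. Counts were scaled with edgeR's TMM method, given below as CPM (counts relative to the scaled library size), and ILL was compared with control by edgeR's quasi-likelihood test over 13066 genes that passed a filter on low counts, with Benjamini-Hochberg adjustment. A gene was called at an adjusted p under 0.05 together with a fold change above 2 or under 0.5. All 10 genes passed the filter. Biliary epithelial markers were present, with 7 of 7 tested and a summed level between 9050 and 9292 CPM in control and between 9531 and 10120 CPM in ILL libraries. At the adjusted p alone, 4 were lower and 3 higher, beside 36.9% and 36.2% of all tested genes. CDH1, with a log2 fold change of 2.07, was called higher. KRT7 had 0.64, EPCAM 0.24, KRT8 -0.16, KRT19 -0.18, SOX9 -0.56 and KRT18 -0.82. Of 14 markers of leukocytes, endothelium, fibroblasts and hepatocytes, 8 were tested and 4 (CD68, VWF, COL1A1 and ALB) were higher with ILL at an adjusted p under 0.05, beside 36.2% of all tested genes. The summed level of these 14 was between 56.2 and 65.0 CPM in control and between 138 and 147 CPM in ILL libraries, most of it CD68, a lysosomal protein of macrophages and other cells. COL1A1 was at 10.2 ± 1.4 and 14.9 ± 1.94 CPM and ALB at 5.88 ± 1.18 and 9.52 ± 5.17 CPM in control and ILL libraries (SD, n = 3 each). The groups overlapped for ALB, with 245, 160 and 240 counts in control and 214, 240 and 541 in ILL libraries, so its higher mean rests on ILL replicate 3. VWF had between 0 and 25 counts per library and LUM between 43 and 126, the latter without passing the test. PTPRC, CD3E, DCN and COL3A1 had between 0 and 9 counts per library and CYP3A4 had 0. The part of these markers in the results below was not tested.

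Transcripts of E2F1, E2F2, E2F8 and RBL1 fell to between 13.2% and 22.5% of the control level. Those of E2F3, E2F4, E2F5 and E2F7 fell to between 55.4% and 68.7%. RB1 did not pass the test. RBL2 was slightly higher, with overlapping groups and a result that was lost in some alternatives given below. With the fold change cutoff, 4 of the 10 genes were called lower, beside 11.4% of all tested genes, and 0 were called higher, beside 12.5% of all tested genes. At the adjusted p alone, 8 were lower, beside 36.9% of all tested genes, and 1 was higher, beside 36.2%. For 8 of the 10 genes every ILL library lay below every control library, as it did for 38% of tested genes. The median log2 fold change of the 10 genes was -0.79 and that of all tested genes was -0.0012. In bulk RNA, fewer cells that express a gene and less of its RNA per cell cannot be told apart.

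**Figure D2:**
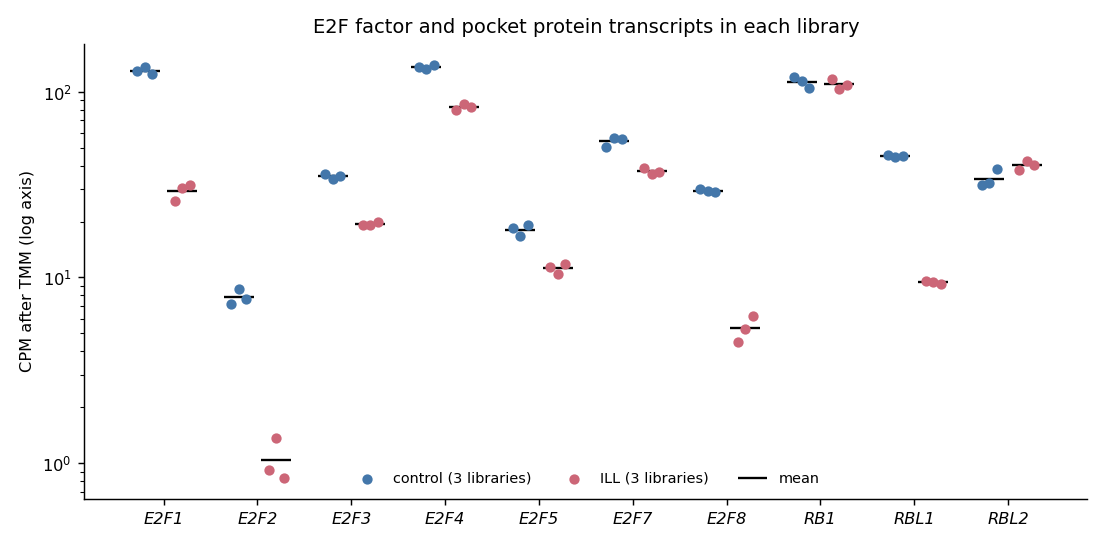
CPM after TMM scaling on a log axis for each of the 10 genes, with 1 point per library (blue control, red ILL, 3 libraries each) and a black bar at the group mean. The points of the groups are separate for every E2F gene and for RBL1, and they overlap for RB1 and RBL2.

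Among the activators, E2F1 was the most abundant and E2F2 had the larger change. E2F1, on chromosome 20 of GRCh38 from 33675683 to 33686404, drives entry into S phase and, when in excess, cell death genes. It was at 130, 136 and 125 CPM in control replicates 1 to 3 and at 25.8, 30.3 and 31.5 CPM in ILL replicates 1 to 3. The groups lay far apart, and the spread within each was small beside the gap. The log2 value of the change was -2.15 ± 0.07 (standard error), with an adjusted p of 8.3e-19, a 4.45-fold lower level.

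E2F2, on chromosome 1 from 23506430 to 23531220, is a close relative of E2F1 with overlapping targets. It had 280, 304 and 272 counts in control libraries and 32, 47 and 29 counts in ILL libraries. These low ILL counts gave the widest interval of the family. Its log2 fold change was -2.92 ± 0.23 (standard error), an adjusted p of 2.4e-11 and a 95% interval from -3.39 to -2.45, and it ranked 133 from the lowest of all 13066 tested genes. The value was -1.0 when fitted with limma on log2 of FPKM plus 1 without a filter, a scale that compresses genes of low level.

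E2F3, on chromosome 6 from 20401906 to 20493715, gives rise to a pair of isoforms from separate starts, which the counts per gene do not separate. It was at 36.1, 33.8 and 34.95 CPM in control and at 19.1, 19.1 and 19.9 CPM in ILL libraries. All ILL libraries were lower, by less than in the other activators. Its log2 fold change was -0.85 ± 0.08 (standard error), an adjusted p of 4.2e-10 and a 95% interval from -1.01 to -0.69, so that the value lay short of the 2-fold cutoff while its interval reached it. The intervals of E2F1 and E2F2 did not reach that of E2F3.

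E2F4 and E2F5, the partners of p107 and p130, fell by modest amounts, with 95% intervals from -0.83 to -0.61 and from -0.91 to -0.47 that overlapped. E2F4, on chromosome 16 from 67192169 to 67198918, was at 136, 132 and 140 CPM in control and at 79.6, 85.6 and 82.2 CPM in ILL libraries. Its log2 fold change was -0.72 ± 0.06 (standard error), with an adjusted p of 2.0e-11. E2F5, on chromosome 8 from 85177225 to 85217158, was at 18.5, 16.6 and 19.1 CPM in control and at 11.4, 10.5 and 11.8 CPM in ILL libraries. The groups were separate for both genes. The log2 fold change of E2F5 was -0.69 ± 0.11 (standard error), with an adjusted p of 2.7e-06. Exons of E2F5 overlap a coding gene on the opposite strand, RBIS, which had a log2 fold change of -0.47, and the sources used here do not say whether strand was used in counting.

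The atypical pair split. E2F8, on chromosome 11 from 19224063 to 19241620, was at 30.1, 29.1 and 28.7 CPM in control and at 4.51, 5.29 and 6.18 CPM in ILL libraries, a log2 fold change of -2.46 ± 0.11 (standard error), with an adjusted p of 7.3e-16. E2F7, on chromosome 12 from 77021247 to 77065580, was at 50.1, 56.4 and 55.8 CPM in control and at 38.8, 35.9 and 36.9 CPM in ILL libraries, a log2 fold change of -0.54 ± 0.07 (standard error), with an adjusted p of 1.7e-07. Both genes were lower in every ILL library, and their 95% intervals were far apart. An annotated antisense transcript overlaps exons of E2F8, and another those of RBL1.

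The pocket protein genes went different ways. RBL1, which encodes p107 and lies on chromosome 20 from 36996349 to 37095995, was at 45.8, 44.3 and 44.99 CPM in control and at 9.54, 9.47 and 9.21 CPM in ILL libraries. Relative to their mean, its libraries were the tightest of the family in both groups. The test gave a log2 fold change of -2.26 ± 0.08 (standard error), with an adjusted p of 5.7e-18, a 4.79-fold lower level.

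RB1, the retinoblastoma gene, lies on chromosome 13 from 48303726 to 48599436 in the GENCODE annotation, while RefSeq ends it at 48481890. The coding genes LPAR6 and RCBTB2 overlap the GENCODE span, but no exon of another gene overlaps those of RB1. RB1 was at 121, 114 and 105 CPM in control and at 117, 104 and 109 CPM in ILL libraries. The groups overlapped. Its log2 fold change was -0.05 with a 95% interval from -0.17 to 0.08 (adjusted p = 0.503 from edgeR), so these libraries bound a change of RB1 to within that interval. RBL2, which encodes p130 and lies on chromosome 16 from 53433977 to 53491649, was at 31.6, 32.3 and 38.3 CPM in control and at 38.04, 42.1 and 40.4 CPM in ILL libraries. Control replicate 3 was slightly higher than ILL replicate 1, and the groups overlapped. Its log2 fold change was 0.24 ± 0.08 (standard error), an adjusted p of 0.00877 and a 95% interval from 0.08 to 0.40. That call was lost without control replicate 1 (0.18, adjusted p = 0.0687), without control replicate 2 (0.20, adjusted p = 0.0546), with scaling by library size only (0.17, adjusted p = 0.0527) and in limma fits on FPKM, all with edgeR's or limma's moderated tests. AKTIP, whose exons overlap RBL2 on the opposite strand, had a log2 fold change of 0.81, and its share in RBL2 counts was not tested.

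**Figure D3:**
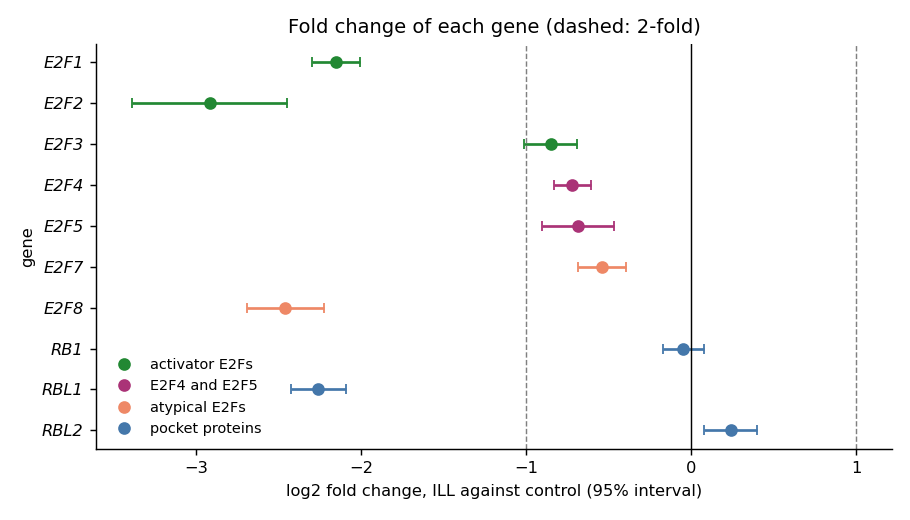
Log2 fold change of each gene, ILL against control, with its 95% interval from edgeR's quasi-likelihood fit, coloured by role, with dashed lines at 2-fold. E2F1, E2F2, E2F8 and RBL1 lie beyond the lower dashed line between -2.92 and -2.15, E2F3, E2F4, E2F5 and E2F7 lie between -0.85 and -0.54, and the interval of RB1 spans 0.

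Ratios of 2 genes within a library do not depend on how libraries are scaled, and 4 were examined. The ratio of RBL2 to RBL1 counts was 0.689, 0.730 and 0.852 in control libraries and 3.99, 4.44 and 4.39 in ILL libraries, so that RBL1 reads outnumbered RBL2 reads in every control library and the reverse held in every ILL library. The difference was 2.50 on the log2 scale, a 5.67-fold change of the ratio. RB1 to RBL1 went from 2.52 ± 0.157 (SD, n = 3) to 11.7 ± 0.673 (SD, n = 3), a difference of 2.21 on the log2 scale. E2F1 to E2F4 went from 0.958 ± 0.067 to 0.354 ± 0.029 (SD, n = 3 each), a difference of -1.44 on the log2 scale. E2F7 to E2F8 went from 1.85 ± 0.160 to 7.12 ± 1.35 (SD, n = 3 each), a difference of 1.93 on the log2 scale. The groups did not overlap in any of the 4 ratios, and each gave p = 0.1 in a two-sided exact permutation test, adjusted p = 0.1 over the 4, which is the smallest p that 3 libraries against 3 allow.

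Levels between genes were compared per length, as the FPKM values (fragments per kilobase and library size) that the authors deposited. These values imply 1 length per gene, 9043 bases for E2F3 and 2690 bases for E2F1. The order and shares below depend on those lengths, and isoforms of other lengths were not separated. In control libraries the order from the highest level was E2F4 at 65.9 ± 1.66, E2F1 at 49.5 ± 2.22, RB1 at 24.3 ± 1.78 and E2F7 at 9.85 ± 0.607 FPKM (SD, n = 3 each), followed by E2F5, E2F8, RBL1, RBL2, E2F3 and, at 1.35 ± 0.125 FPKM, E2F2. The libraries of E2F7 and E2F5 overlapped, as did those of E2F8 and RBL1, and the other neighbours were separate. In ILL libraries the order was E2F4 at 38.2 ± 1.16, RB1 at 22.4 ± 1.5, E2F1 at 10.6 ± 1.04 and RBL2 at 7.30 ± 0.326 FPKM (SD, n = 3 each), followed by E2F7, E2F5, E2F3, RBL1, E2F8 and, at 0.169 ± 0.046 FPKM, E2F2. Of neighbours in that order, RBL1 and E2F8 overlapped. RB1 thus stood above E2F1 per length in ILL libraries and below it in control libraries.

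The summed FPKM of the 7 E2F genes was 147 ± 0.187 in control and 64.0 ± 1.78 in ILL libraries (SD, n = 3 each). Of that sum, the activators made up 37.3% ± 1.49 in control and 20.1% ± 1.15 in ILL libraries, with E2F1 alone at 33.7% and 16.5%. E2F4 and E2F5 together made up 50.9% ± 1.6 and 67.8% ± 0.876. The atypical pair held 11.9% ± 0.286 in control and 12.1% ± 0.613 in ILL libraries, with E2F8 at 5.16% and 2.05% and E2F7 at 6.70% and 10.1% (SD, n = 3 for each group). Among pocket protein transcripts, RBL1 was at 19.4% ± 0.407 in control and 4.74% ± 0.152 in ILL libraries of the sum per length, RB1 was at 63.5% ± 2.68 and 71.8% ± 2.06, and RBL2 at 17.0% ± 2.28 and 23.4% ± 1.93 (SD, n = 3 each). These shares are within a library and were not tested one by one.

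**Figure D4:**
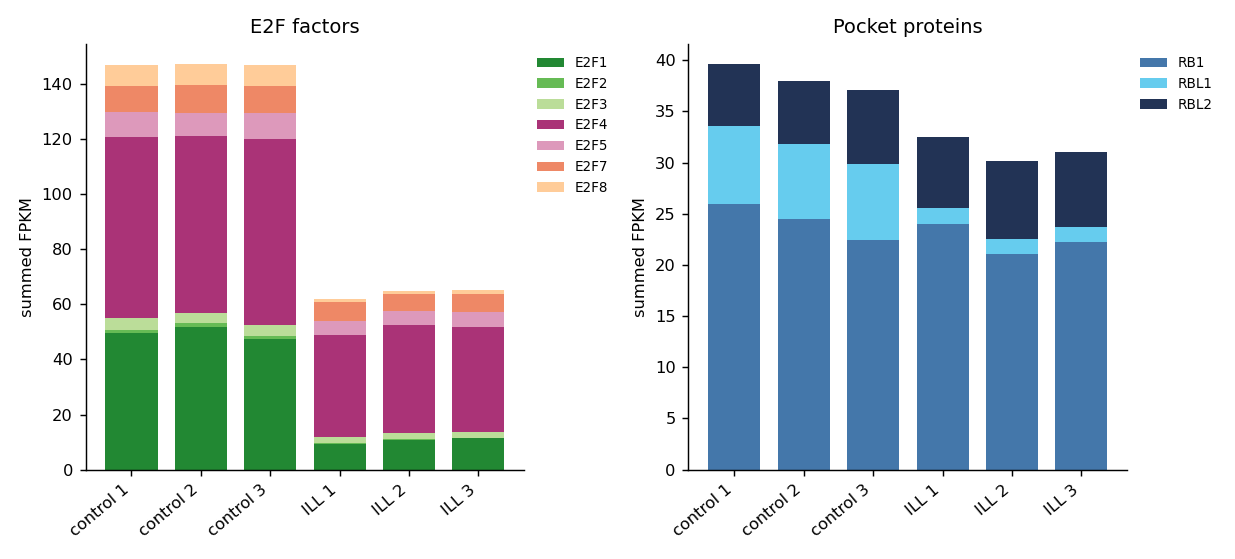
Stacked FPKM of the 7 E2F genes (left) and the 3 pocket protein genes (right) in each of the 6 libraries, from 0. The E2F stacks stand near 147 FPKM in control and between 62.0 and 65.2 FPKM in ILL libraries, with the segments of E2F1 (dark green) and E2F4 (purple) losing the most height, and on the right RBL1 (light blue) shrinks while RB1 and RBL2 keep most of their height.

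The partners of the family were read from the same fit. E2F1 to E2F5 bind DNA together with a DP protein, and TFDP1, which encodes DP1, was at 97.7 ± 2.58 FPKM in control and 42.4 ± 2.55 FPKM in ILL libraries (SD, n = 3 each), a log2 fold change of -1.14 ± 0.05 (standard error), with an adjusted p of 1.8e-15. TFDP2 had a log2 fold change of -0.65, and TFDP3 had 0 counts in every library. E2F6, a repressor that does not use pocket proteins, was at 13.5 ± 1.73 and 11.6 ± 1.14 CPM (SD, n = 3 each), and its log2 fold change of -0.21 was not past the threshold (adjusted p = 0.116 from edgeR), although it was without control replicate 3 (adjusted p = 0.0456) and with scaling by library size only (adjusted p = 0.0399).

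Of the 8 listed genes of the MuvB core and the MYB and FOXM1 activators, 6 were called lower, beside 11.4% of all tested genes. MuvB joins p107 or p130 in DREAM and B-MYB or FOXM1 later in the cycle. MYBL1, which encodes A-MYB, went from 48.8 ± 3.24 to 2.77 ± 0.56 CPM (SD, n = 3 each), a log2 fold change of -4.14, below that of every E2F gene. FOXM1 went from 360 ± 12.1 to 54.4 ± 6.45 CPM and MYBL2, which encodes B-MYB, from 554 ± 8.25 to 95.9 ± 5.25 CPM (SD, n = 3 each), with log2 fold changes of -2.73 and -2.53. The core subunits LIN9, LIN54 and LIN52 had values of -1.80, -1.18 and -1.07, RBBP4 had -0.59 and LIN37 had 0.47 (adjusted p = 0.0247 from edgeR). The value of LIN52 lay short of the 2-fold cutoff without control replicate 3 (-0.97), without ILL replicate 3 (-0.85) and in a limma fit on log2 of FPKM plus 1 without a filter (-0.50), and that of LIN54 was -0.99 in the last. The value of LIN37 was not past the threshold in 4 alternatives, among them without control replicate 3 (adjusted p = 0.18) and without ILL replicate 3 (adjusted p = 0.139).

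Among kinases and cyclins that phosphorylate pocket proteins, 4 of 8 were called lower and 1 higher, beside 11.4% and 12.5% of all tested genes. The cyclin E genes CCNE1 and CCNE2 had log2 fold changes of -2.86 and -2.64, and their kinase CDK2 had -1.94, going from 104 ± 7.31 to 27.2 ± 2.29 CPM (SD, n = 3 each). Of the kinases that pair with D cyclins, CDK4 had -1.52 and CDK6, at 255 ± 6.58 and 142 ± 6.27 CPM (SD, n = 3 each), had -0.85. CCND1, the most abundant cyclin of the list per length, had -0.55 and CCND3 had -0.48, while CCND2, at 2.50 ± 0.531 CPM in control and 5.77 ± 0.591 CPM in ILL libraries (SD, n = 3 each), had 1.20. The value of CCND2 was 0.42 in a limma fit on log2 of FPKM plus 1 without a filter, short of the 2-fold cutoff. Their inhibitors, which keep pocket proteins active, went both ways: of 7 listed, 5 were tested, 2 called higher and 1 lower, beside 12.5% and 11.4% of all tested genes. CDKN1A, which encodes p21, was at 103 ± 7.23 CPM in control and 760 ± 19.7 CPM in ILL libraries (SD, n = 3 each), a log2 fold change of 2.88. CDKN1C, which encodes p57, went from 1.04 ± 0.143 to 5.73 ± 0.466 CPM (SD, n = 3 each), a log2 fold change of 2.46, which was 1.33 in a limma fit on log2 of FPKM plus 1. CDKN2C, which encodes p18, fell from 22.9 ± 0.937 to 2.87 ± 0.109 CPM (SD, n = 3 each). CDKN1B (p27) and CDKN2D (p19) had 0.71 and -0.57. CDKN2A and CDKN2B had between 0 and 2 counts in every library.

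Among 12 genes of corepressors that pocket proteins recruit, 1 was called lower, SUV39H1, a histone methyltransferase, at -2.07, beside 11.4% of all tested genes. At the adjusted p alone 6 were lower and 5 higher, beside 36.9% and 36.2% of all tested genes, with a median of -0.19, so that these shares lay near those of all genes. The histone deacetylase gene HDAC2 had -0.86 and the histone chaperone gene RBBP7 -0.63. The histone demethylase gene KDM5A had 0.59, ARID4B had 0.49 and the chromatin remodeller gene SMARCA2 had 0.35. Of 4 listed ubiquitin ligase genes that act on E2F or pocket proteins, 3 were called lower, beside 11.4% of all tested genes. These were CCNF (-2.95), CKS1B (-2.23) and SKP2 (-2.22), while FZR1, with 0.12, was not past the threshold (adjusted p = 0.129 from edgeR). SKP2 and its cofactor CKS1B belong to the ligase that marks p130 and p27 for degradation, and CCNF encodes cyclin F, which targets activator E2Fs.

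Target genes fell together. All 50 listed E2F target genes of G1/S were called lower, beside 11.4% of all tested genes, with a median log2 fold change of -2.47. Their summed level went from between 5067 and 5114 CPM to between 976 and 1019 CPM. The lowest values were those of MCM10, a replication initiation factor, at -3.51, TYMS, thymidylate synthase, at -3.33 and DTL, a substrate receptor of the CUL4 ubiquitin ligase, at -3.21. The smallest changes were those of USP1 at -1.38, SLBP, which binds histone mRNA, at -1.16 and RPA2, a single-strand DNA binding subunit, at -1.08. Of 35 listed DREAM target genes of G2/M, 34 were called lower, beside 11.4% of all tested genes, and the other, CDC25B, had -0.64. The median of that list was -3.08 and its summed level went from between 6196 and 6463 CPM to between 807 and 855 CPM. CDC20, an activator of the anaphase-promoting complex, had -3.67, BIRC5, which encodes survivin, -3.56 and TOP2A, a DNA topoisomerase, -3.55. The next smallest changes after CDC25B were ECT2 at -1.80 and CKS2 at -2.37. These medians stand beside a median of -0.0012 over all tested genes. The lists were written by hand from genes known to cycle, with earlier results of these data known. Their counts and medians are therefore a description and not a test, and direct regulation by any E2F was not measured. The E2F motif lay in windows of 26 of 42 G1/S target genes with a window and of 1 of 30 G2/M target genes, beside 6.58% of the tested genes with a window. The CHR element lay in windows of 22 of the 30 G2/M target genes, beside 15.5% of tested genes. Because the lists were chosen as E2F and DREAM targets, these motif shares describe the lists and do not test the falls.

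**Figure D5:**
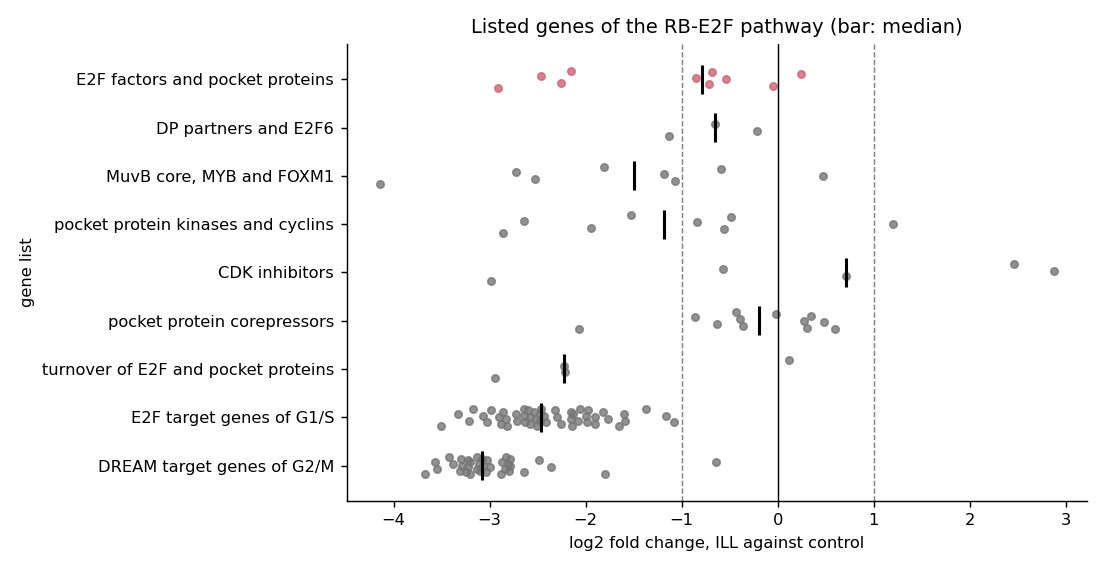
Log2 fold change of every tested gene in each list of the RB-E2F pathway, 1 point per gene, with a black bar at the median and dashed lines at 2-fold. The E2F factors and pocket proteins (red) fall into a group below -2, a group between -0.85 and -0.54 and the pair RB1 and RBL2 near 0, while both target lists lie almost wholly beyond the lower dashed line.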

How the data were processed

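Total RNA was extracted by TRIzol and sequenced as mRNA libraries. The authors deposited a table of raw counts and a table of FPKM, each by gene symbol, and 100% of 88055 nonzero FPKM values matched a count divided by 1 length per gene and the library total within 0.1%. The submitters' processing notes name GRCh38 and DESeq2, and the aligner, counting program and annotation are not given in the sources used here. Groups and replicate numbers came from the sample titles.

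Counts were filtered with filterByExpr, scaled by TMM and tested with edgeR's quasi-likelihood test (edgeR 4.0.16, R 4.3.3), fitted on 13066 genes with Benjamini-Hochberg adjustment over all of them. Calls used an adjusted p under 0.05 and a fold change cutoff of 2, the cutoffs of the paper's methods. Standard errors are the log2 fold change divided by the square root of F. With 34282764 to 37758569 counts per library, counting error is small for most genes and the biological coefficient of variation was 0.0717. Alternatives were DESeq2 1.42.0 (size factors or Wald test), library size only, other count filters, no fold change cutoff, a replicate block, omission of each library in turn, and limma 3.58.1 on log2 of FPKM plus 1 or plus 0.1. Gene ratios were tested with exact permutation tests (SciPy 1.17.1). No pair of libraries of a group had counts that agreed within sampling noise, and each was counted as 1 sample. That spread does not show whether the libraries came from separate cultures.

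Genes and lists were chosen with earlier results of these data known. Named genes are the 10 family genes, every measured gene of lists with at most 8 genes, and of longer lists the 3 highest and 3 lowest log2 fold changes among genes with an adjusted p under 0.05 and a mean of at least 1 CPM. Gene positions are from GENCODE release 29 (GRCh38) and promoter windows from RefSeq (GRCh38.p14). Windows of the 10 family genes were kept when within 5000 bases of the annotated gene start. Motif shares over listed genes, tested genes and all windows used every window, without that limit.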

Additional observations from a re-analysis of the deposited data

How the results depend on the processing

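The count of called genes of the family was 4, all lower, when any 1 library was omitted, with DESeq2's size factors or Wald test, with library size only, with both other count filters and with the replicate block, and it was 3 or 4 in limma fits on FPKM, where E2F2 was not tested under the filter on mean FPKM. Without the fold change cutoff it was 9, 8 lower and 1 higher, which follows from dropping the cutoff. Of 123 tested genes in the pathway lists outside the family, 101 were called, 98 lower and 3 higher, beside 11.4% and 12.5% of all tested genes. Of the lower genes, 50 were in the G1/S target list and 34 in the G2/M target list. The lists were written by hand with earlier results of these data known, so this count is a description and not a test. The count of called genes in the lists lay between 98 and 120 over all alternatives. The 120, 110 lower and 10 higher, came without the fold change cutoff, beside 36.9% and 36.2% of all tested genes. Of the 10 family genes, 9 held direction and side of the adjusted p threshold in every alternative that tested them, and RBL2 was not past it in 6 of its 15 alternatives, with values between 0.15 and 0.33. Of 46 other named genes, 42 did so by the adjusted p, while LIN52, LIN54 and CCND2 fell short of the 2-fold cutoff in alternatives given beside them. No value reversed. All 4 ratios kept their direction in their 9 alternatives, and without 1 library they lay between 2.44 and 2.59 for RBL2 to RBL1, 2.16 and 2.26 for RB1 to RBL1, 1.79 and 2.05 for E2F7 to E2F8 and -1.50 and -1.38 for E2F1 to E2F4. Deviations of same-numbered libraries of the groups had correlations from -0.0431 to 0.0012 over genes, beside -0.0386 to 0.0498 for differently numbered libraries. No pairing by number was seen, but 3 libraries per group cannot exclude a weak one. The replicate block gave 4 called genes of the family and 101 of the lists. In the paired sign-flip test each ratio had the same difference, 2.50 for RBL2 to RBL1, which pairing cannot change by its arithmetic. With library sizes alone as the scale, the median over all genes was -0.0702. Low counts limit the precision of E2F2 in the family, at 29 to 47 counts with ILL, and among other named genes that of CDKN1C, at 34 to 40 counts in control libraries.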
